A study of Mus musculus with 6 samples.

Results

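The 10 genes of dead-cell and lipoprotein uptake described here were measured in bEND.3 cells, a mouse brain endothelial line, out of the 49315 genes of the count table. They were taken by gene name: the TAM receptor tyrosine kinases Axl, Tyro3 and Mertk, their ligands Gas6 and Pros1, and the scavenger receptors Cd36, Scarb1, Scarf1, Stab1 and Lrp1. Cells of the GapmeR group received a locked nucleic acid GapmeR against the lncRNA Gm39822 at 100 nM, and cells of the Negative Control group received a control GapmeR at the same dose, in both cases with Lipofectamine 2000. A GapmeR is an antisense oligonucleotide whose DNA centre lets RNase H cleave its paired RNA. Ribosomal RNA was removed before sequencing, and 4 GapmeR and 2 Negative Control samples were analysed, all from this 1 cell line. Nothing in the labels says that the samples came from separate cultures, so p-values measure the spread between these samples, which may be technical.

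The ligands of TAM receptors are Gas6, which binds all of them, and protein S, the product of Pros1. Both ligands carry a vitamin K-dependent domain that binds phosphatidylserine on dying cells, and thereby bridge the dying cell to the receptor of the engulfing cell. Scavenger receptors bind modified lipoproteins, apoptotic cells and matrix fragments, and on vascular endothelium they clear such ligands from blood. In brain endothelium, TAM signalling is also known for its part in barrier integrity.

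Total counts were between 29261988 and 37117934 per sample. For Gm39822, the controls had 61 and 56 counts and GapmeR 1 to 4 had 2, 1, 4 and 2, so each sample matched its label. Endothelial markers were abundant, with Cdh5 (VE-cadherin) at 2463 ± 112 CPM (SD, n = 2) in the controls and 1733 ± 175 CPM (SD, n = 4) in the GapmeR samples, and Pecam1 at 1265 ± 13.2 and 1029 ± 53.6 CPM, where CPM is the read count scaled to a common library size after TMM normalization. Of 18 endothelial markers 3 rose and 8 fell, which is 61.1%, against 45.3% of all genes tested. Those that fell were Emcn (-1.33 on the log2 scale), Sox17 (-0.86), Esam (-0.63), Eng (-0.59), Cdh5 (-0.51), Flt1 (-0.39), Kdr (-0.33) and Pecam1 (-0.30). The edgeR-adjusted p was 0.000348 for Cdh5 and 0.00499 for Pecam1. Those that rose were Erg, Sox18 and Egfl7, by 1.12, 0.62 and 0.22 on the log2 scale. The part of these markers in the results was not tested. Macrophage markers were present in every sample, with Lyz2 (68.8 and 62.1 CPM in the controls) and Cd68 (87.2 and 89.5 CPM) highest. Cd68 was at 113 to 125 CPM in all GapmeR samples, whereas Lyz2 was at 79.1, 73.5, 168 and 206 CPM in GapmeR 1 to 4. The summed level of 25 macrophage markers, with Lyz2 and Cd68 included, was not even across the GapmeR group. It was 206 and 213 CPM in the controls, 249.99 and 269 CPM in GapmeR 2 and 1, and 457 and 487 CPM in GapmeR 3 and 4. For this reason values without GapmeR 3 and 4 are given below where that changes a call or a direction. In bulk RNA, fewer cells of a type and less RNA per cell cannot be told apart.

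All 10 genes had enough counts to be tested (at least 5 counts in at least 2 samples). By the quasi-likelihood test of edgeR, adjusted after Benjamini and Hochberg over 18234 genes, 2 of the 10 rose (Stab1 and Gas6), 2 fell (Tyro3 and Scarf1) and 6 did not reach an adjusted p under 0.05. This share of 40% was close to the background, since 45.3% of all genes tested passed, 25.4% higher and 20% lower. The median log2 fold change of the 10 genes was -0.04, against 0.03 over all genes tested. Without GapmeR 3 and 4, the same 2 genes rose and 3 fell (Axl, Tyro3 and Scarf1), with 43.7% of all genes passing, 25.4% higher and 18.3% lower. With replicate number as a block on these 4 samples, the counts were again 2 higher and 3 lower, against 44.6% of all genes, 25.8% higher and 18.8% lower. In 5 of the 10 genes the GapmeR samples all lay above or all below both controls, as in 59.2% of all genes tested.

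**Figure D1:**
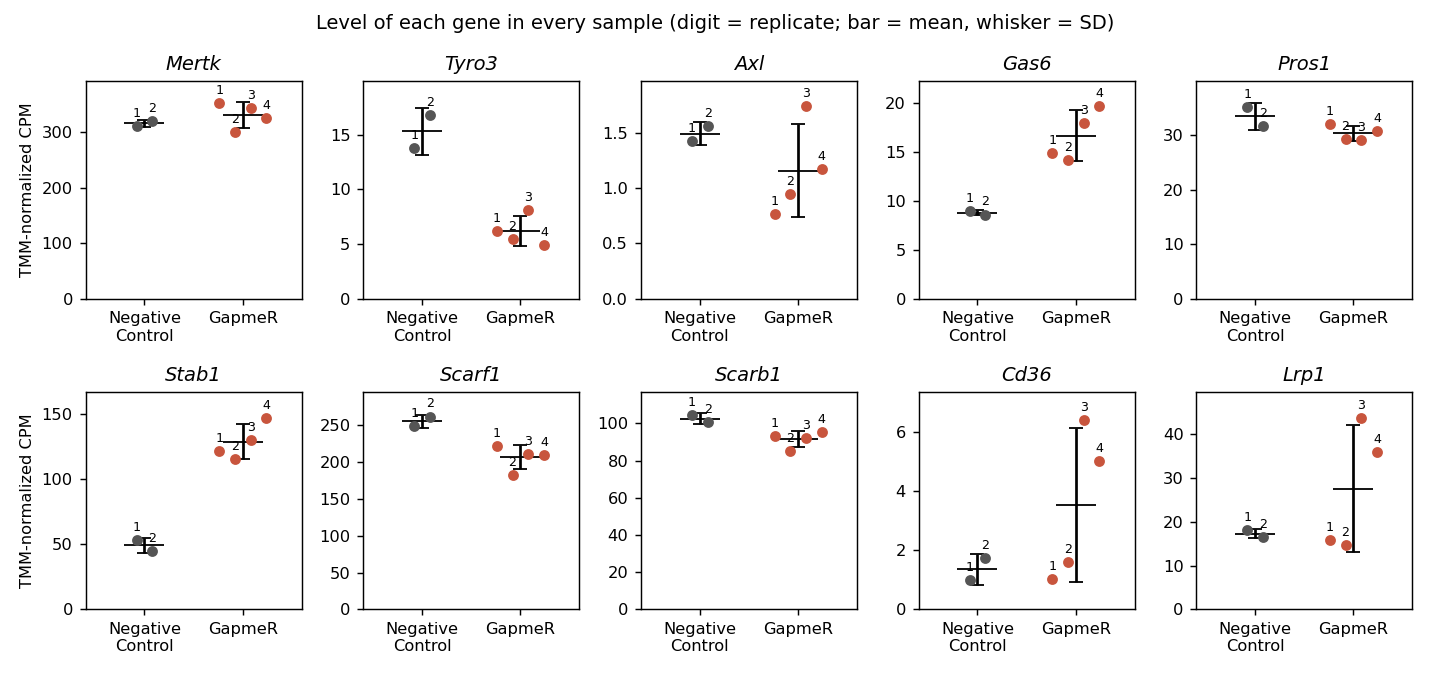
Level of the 10 genes in TMM-normalized CPM (vertical axes, each starting at 0) in Negative Control (grey) and GapmeR samples (red), with digits for replicates, bars for means and whiskers for SD. All GapmeR samples lie above the controls for Stab1 and Gas6 and below them for Tyro3, Scarf1 and Scarb1, while Cd36 and Lrp1 are high in GapmeR 3 and 4 alone.

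Levels of different genes were compared as CPM per kb of annotated exon. Mertk had the highest level in the controls (65.7 ± 1.35 CPM per kb), followed by Scarf1 (58.0 ± 2.10 CPM per kb). Scarb1 was at 9.91 ± 0.276, Pros1 at 5.29 ± 0.397 and Stab1 at 4.77 ± 0.57 CPM per kb, and the ranges of Pros1 and Stab1 overlapped. Below them came Tyro3 (2.29 ± 0.325), Gas6 (1.59 ± 0.0461) and Lrp1 (0.843 ± 0.0525), all in CPM per kb with SD over 2 controls. Axl (0.163 ± 0.011 CPM per kb) and Cd36 (0.107 ± 0.0413 CPM per kb) were lowest. In the GapmeR samples Stab1 moved from rank 5 to rank 3 at 12.5 ± 1.31 CPM per kb (SD, n = 4), above Scarb1 at 8.85 ± 0.423 CPM per kb, and Gas6 stood above Tyro3. With the longest annotated transcript as the length in place of all exons, Scarb1 stayed above Stab1, at 29.2 ± 1.39 against 16.1 ± 1.69 CPM per kb. In the GapmeR group the ranges of the neighbours Lrp1 and Tyro3, and of Cd36 and Axl, overlapped.

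**Figure D2:**
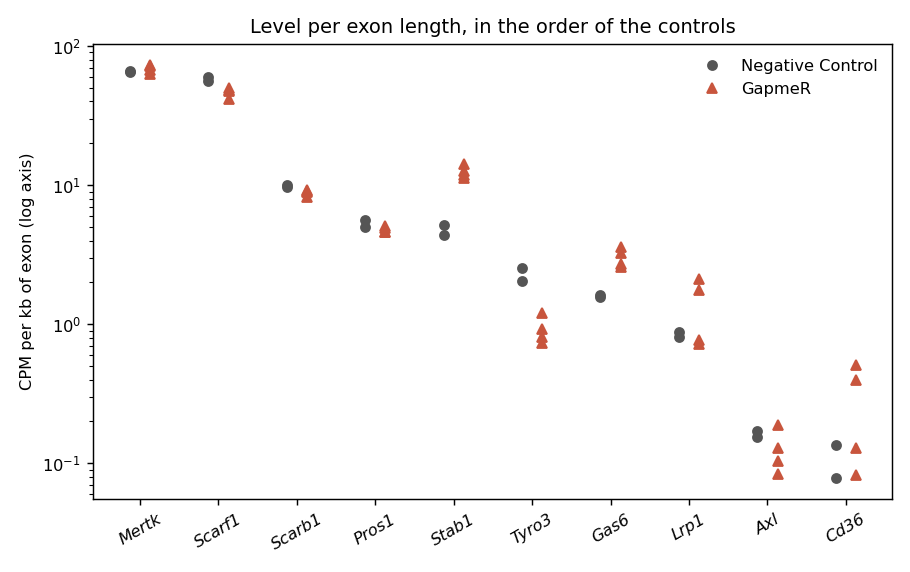
Level per exon length (vertical log axis, CPM per kb) of the 10 genes in the order of the control means, with 1 point for each of 2 Negative Control (grey circles) and 4 GapmeR samples (red triangles). Mertk and Scarf1 lead in both groups, and Axl and Cd36 are lowest.

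Among the TAM receptors, Tyro3 fell after Gm39822 knockdown, while no change of Mertk was detected. Tyro3 (ENSMUSG00000027298), a receptor best known from neurons, spans positions 119797740 to 119818104 of chromosome 2 (mm10). It stood at 13.8 and 16.8 CPM in the controls and at 6.20, 5.45, 8.09 and 4.92 CPM in GapmeR 1 to 4. Every GapmeR sample was below both controls, as in 27.3% of all genes tested, and the fall was 2.49-fold, with a log2 fold change of -1.32 (edgeR-adjusted p = 1.9e-05, SE 0.16). A 2-sided exact permutation test of 4 against 2 samples gave p = 0.0667, the smallest that its 15 splits allow.

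Mertk (ENSMUSG00000014361), the receptor through which macrophages and retinal pigment epithelium engulf dying cells and cell debris, spans positions 128698915 to 128803162 of chromosome 2 (mm10). Its levels were 312 and 321 CPM in the controls and 353, 301, 344 and 326 CPM in GapmeR 1 to 4, so the groups overlapped. The log2 fold change was 0.07 with a 95% interval from -0.10 to 0.23 (edgeR-adjusted p = 0.514). Scaled by library size alone, which shifted all genes by a median of 0.15 on the log2 scale, Mertk passed at 0.21 (edgeR-adjusted p = 0.0276). GapmeR 3 and 4 lay between GapmeR 2 and GapmeR 1.

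Axl (ENSMUSG00000002602), the TAM receptor that interferon and inflammation raise in many cells, spans positions 25756500 to 25788924 of chromosome 7 (mm10) and had few counts. There were 39 and 50 counts in the controls and 26, 37, 54 and 38 counts in GapmeR 1 to 4, which is 1.42 and 1.57 CPM against 0.767, 0.950, 1.74 and 1.18 CPM. GapmeR 3 was above both controls and the other GapmeR samples were below them. The log2 fold change was -0.38 (95% interval -1.02 to 0.26, edgeR-adjusted p = 0.323). Without GapmeR 3 and 4 it was -0.77 (edgeR-adjusted p = 0.0341, SE 0.29), so the call of Axl rests on which GapmeR samples enter.

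As a share of the summed TAM receptor level per kb, Mertk made up 96.4% ± 0.403 (SD, n = 2) in the controls and 98.5% ± 0.293 (SD, n = 4) after knockdown. Tyro3 went from 3.36% ± 0.393 to 1.32% ± 0.247 and Axl from 0.239% ± 0.0103 to 0.180% ± 0.0613. The shares of Mertk and Tyro3 did not overlap between the groups (2-sided exact permutation test, p = 0.0667 for each), whereas those of Axl did (p = 0.333 by the same exact test). As the shares add up to the whole, that of Mertk mirrors the others, and its p-value is not a separate result. TAM receptor transcripts of bEND.3 cells were thus almost wholly Mertk in both groups.

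Of the ligands, Gas6 rose and no change of Pros1 was detected. Gas6 (ENSMUSG00000031451), which binds all TAM receptors, spans positions 13465374 to 13494535 of chromosome 8 (mm10). Its levels were 8.94 and 8.59 CPM in the controls and 14.9, 14.1, 18.0 and 19.6 CPM in GapmeR 1 to 4. All GapmeR samples lay above both controls, as in 31.9% of all genes tested, with the higher values in GapmeR 3 and 4. The rise was 1.90-fold, a log2 fold change of 0.92 (edgeR-adjusted p = 5.2e-05, SE 0.14). Without GapmeR 3 and 4 it was 0.75 (edgeR-adjusted p = 1.8e-05, SE 0.13).

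Pros1 (ENSMUSG00000022912), which also serves as an anticoagulant cofactor, spans positions 62854307 to 62929346 of chromosome 16 (mm10). It stood at 35.2 and 31.7 CPM in the controls and at 32.1, 29.2, 29.2 and 30.9 CPM in GapmeR 1 to 4. The groups overlapped, and the log2 fold change of -0.14 had a 95% interval from -0.31 to 0.03 (edgeR-adjusted p = 0.175). Of the summed level of both ligands per kb, Gas6 made up 23.2% ± 0.822 (SD, n = 2) in the controls and 38.5% ± 3.86 (SD, n = 4) in the GapmeR samples, without overlap (2-sided exact permutation test, p = 0.0667).

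Of the scavenger receptors, Stab1 rose. Stab1 (ENSMUSG00000042286), the scavenger receptor stabilin-1 of sinusoidal endothelium and of some macrophages, spans positions 31139017 to 31168651 of chromosome 14 (mm10). It stood at 53.2 and 44.9 CPM in the controls and at 122, 116, 130 and 147 CPM in GapmeR 1 to 4. Every GapmeR sample was above both controls, and the rise was 2.62-fold, a log2 fold change of 1.39 (edgeR-adjusted p = 5.8e-08, SE 0.10). Without GapmeR 3 and 4 the log2 fold change was 1.30 (edgeR-adjusted p = 3.3e-12, SE 0.10). Its paralogue Stab2, which takes up hyaluronan, changed by -0.17 on the log2 scale (edgeR-adjusted p = 0.528, SE 0.21). Genes on the opposite strand cover 5.49% of the exon bases of Stab1 in the GENCODE annotation of GRCm39. Such genes also cover 6.20% for Lrp1, 3.78% for Scarb1, 3.02% for Mertk, 2.8% for Gas6 and 0.506% for Pros1. Nt5dc2, which shares 113 of the Stab1 bases, also rose. It went from 4.26 and 4.53 CPM in the controls to between 5.74 and 6.65 CPM in the GapmeR samples (log2 fold change 0.51, edgeR-adjusted p = 0.00690).

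Scarf1 and Scarb1 were lower in all GapmeR samples, and Scarf1 passed the test. Scarf1 (ENSMUSG00000038188), an endothelial receptor for modified lipoproteins and for apoptotic cells through C1q, spans positions 75513489 to 75526582 of chromosome 11 (mm10). It went from 248 and 262 CPM in the controls to 221, 183, 211 and 210 CPM in GapmeR 1 to 4. The fall was 1.24-fold, a log2 fold change of -0.31 (edgeR-adjusted p = 0.00546, SE 0.08). It did not pass when Negative Control 2 was left out (-0.25, edgeR-adjusted p = 0.119) or with scaling by library size alone (-0.16, edgeR-adjusted p = 0.101).

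Scarb1 (ENSMUSG00000037936), the high-density lipoprotein receptor SR-BI, spans positions 125277087 to 125341094 of chromosome 5 (mm10). Its levels were 105 and 101 CPM in the controls and 93.2, 85.3, 92.2 and 95.5 CPM in GapmeR 1 to 4. All GapmeR samples were below both controls, but the log2 fold change of -0.16 (95% interval -0.31 to -0.01) missed the threshold (edgeR-adjusted p = 0.0720).

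Cd36 and Lrp1 split the GapmeR samples. Cd36 (ENSMUSG00000002944), a receptor for long-chain fatty acids, oxidized lipoproteins and thrombospondin, spans positions 17781690 to 17888959 of chromosome 5 (mm10). It had 27 and 55 counts in the controls, 35 and 63 in GapmeR 1 and 2, and 199 and 162 in GapmeR 3 and 4. In CPM, the controls were at 0.986 and 1.72, GapmeR 1 and 2 at 1.03 and 1.62, and GapmeR 3 and 4 at 6.42 and 5.01. GapmeR 1 and 2 thus lay within the range of the controls, and GapmeR 3 and 4 above it. The log2 fold change over all samples was 1.34 with a 95% interval from -1.30 to 3.98 (edgeR-adjusted p = 0.338). Without GapmeR 3 and 4 it was -0.02, with an interval from -0.63 to 0.60 (edgeR-adjusted p = 0.974).

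Lrp1 (ENSMUSG00000040249), a large endocytic receptor for apolipoprotein E, protease complexes and amyloid-beta, spans positions 127538157 to 127621148 of chromosome 10 (mm10). Its levels were 18.0 and 16.5 CPM in the controls, 15.8 and 14.7 CPM in GapmeR 1 and 2, and 43.7 and 35.9 CPM in GapmeR 3 and 4. GapmeR 1 and 2 were below both controls and GapmeR 3 and 4 above them. Over all samples the log2 fold change was 0.67 with a 95% interval from -0.99 to 2.32 (edgeR-adjusted p = 0.439). Without GapmeR 3 and 4 it turned to -0.16, with an interval from -0.40 to 0.08 (edgeR-adjusted p = 0.303).

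**Figure D3:**
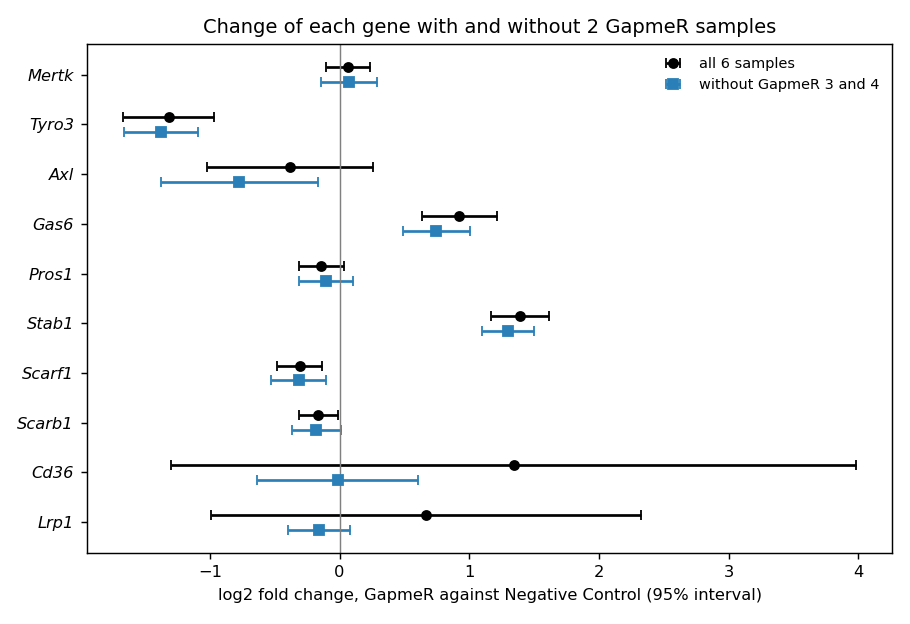
Log2 fold change of GapmeR against Negative Control (horizontal axis) with 95% intervals from edgeR for the 10 genes, over all 6 samples (black circles) and without GapmeR 3 and 4 (blue squares). The wide intervals of Cd36 and Lrp1 narrow around 0 without these samples, that of Axl moves below 0, and Stab1, Gas6, Tyro3 and Scarf1 keep their side of 0.

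The lower value of GapmeR 3 and 4 was at least 2-fold over the higher value of GapmeR 1 and 2 in Cd36 (3.10-fold) and Lrp1 (2.26-fold), and in 1.05% of all genes tested. For the other members this ratio was between 0.794 and 1.24, with Axl at 1.24, Gas6 at 1.21 and Stab1 at 1.07. Among the 25 macrophage markers, GapmeR 3 and 4 were both above GapmeR 1 and 2 in 21, and by at least 2-fold in 16, with a median ratio of 2.20 over the 24 tested. Over all genes tested, GapmeR 3 and 4 were both above in 17.3%. Since the GapmeR samples were set side by side after earlier results had shown this division, no test was made of it.

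The defining markers moved with it. Csf1r, the receptor for macrophage colony-stimulating factor, was at 9.33, 7.40, 22.6 and 25.8 CPM in GapmeR 1 to 4 and at 7.34 and 6.83 CPM in the controls. Adgre1 (F4/80) was at 4.99, 3.83, 10.4 and 13.4 CPM, against 3.91 and 3.73 CPM. The summed level of 8 defining markers, among them Ptprc (CD45), Tyrobp, Itgam (CD11b), Spi1 (PU.1) and C1qa, was 21.5 and 17.9 CPM in GapmeR 1 and 2, 54.2 and 58.0 CPM in GapmeR 3 and 4, and 17.6 and 16.9 CPM in the controls. Of these markers only Cx3cr1, the fractalkine receptor, was not higher in both GapmeR 3 and 4, and none was at 0 counts throughout. None of the 8 passed the test between the groups, and 4 of the 25 markers did, all higher (Cd68, Fcer1g, Fcgr1 and Mrc1). These 4 are 16.7% of the 24 tested, against 45.3% of all genes. When GapmeR 3 and 4 were left out, Lyz2 (log2 fold change 0.24, edgeR-adjusted p = 0.0350), Laptm5 (0.44, edgeR-adjusted p = 0.0251) and Cybb (0.47, edgeR-adjusted p = 0.0359) also passed as higher, and Cd14 as lower (-0.76, edgeR-adjusted p = 0.00253). Lyz2 (lysozyme), Cd68, Ctss and Laptm5 were the other markers with the highest levels, and Cd68, a lysosomal protein, was at 113 to 125 CPM in all GapmeR samples. The part of these cells or transcripts in the values of Cd36, Lrp1 and Axl was not tested. Of other stromal markers, Col1a1 (type I collagen) was at 38.0 CPM in GapmeR 3 but at 4.58 CPM in GapmeR 4, and Pdgfra was at 9.43 to 12.1 CPM in the GapmeR samples. Of the 11 mural, fibroblast and glial markers tested, Myh11 (smooth muscle myosin) rose from 0.365 and 0.251 CPM in the controls to between 5.37 and 5.93 CPM (log2 fold change 4.19, edgeR-adjusted p = 9.9e-10), and Gfap fell (-1.01, edgeR-adjusted p = 0.0227). Dcn (-1.79, edgeR-adjusted p = 0.00469) and Aldh1l1 (-1.45, edgeR-adjusted p = 0.0470) passed as lower without GapmeR 3 and 4. All 12 markers of this list summed to 18.2 and 18.7 CPM in the controls, where Pdgfra alone was at 10.7 and 10.4 CPM. The calls of Gfap, Dcn and Aldh1l1 thus rest on low levels. The endothelial marker Egfl7, which rose over all samples (0.22), did not pass without GapmeR 3 and 4 (0.18, edgeR-adjusted p = 0.238).

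**Figure D4:**
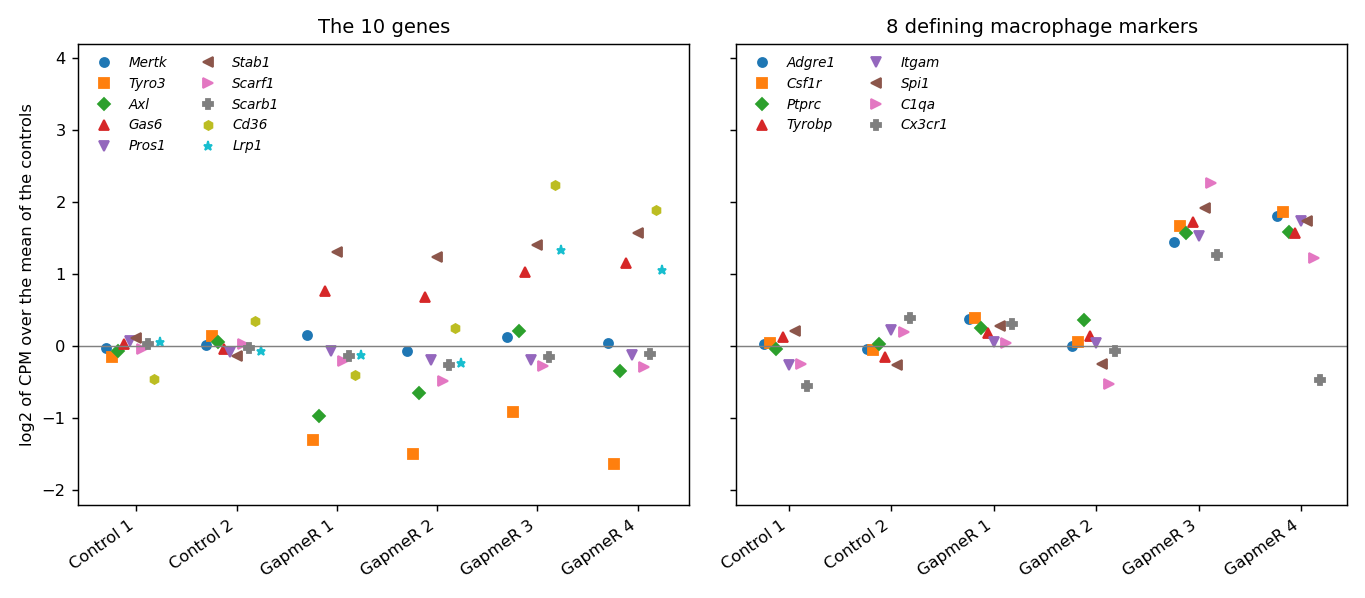
Log2 of the CPM of each sample over the mean of the 2 controls (vertical axis) for the 10 genes (left) and for 8 defining macrophage markers (right), with 1 symbol per gene and samples along the horizontal axis. Cd36 and Lrp1 stand with the markers in GapmeR 3 and 4, whereas Stab1, Gas6 and Tyro3 are displaced in all 4 GapmeR samples.

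The promoters of the genes that changed most are shown to let their base composition be compared. The RefSeq promoter table used here (GRCm38.p6) matched 8 of the 10 genes, and the 250 bases before the transcript start it uses are printed 5′ to 3′, in lower case, with GC boxes (GGGCGG on either strand) in capitals. They lie at chr14:31168642-31168891 on the minus strand for Stab1, chr8:13494536-13494785 on the minus strand for Gas6 and chr2:119799264-119799513 on the plus strand for Tyro3. The start used is not always the outermost of the gene, so the window of Tyro3 lies inside the gene span given above and that of Stab1 overlaps its end.
Stab1: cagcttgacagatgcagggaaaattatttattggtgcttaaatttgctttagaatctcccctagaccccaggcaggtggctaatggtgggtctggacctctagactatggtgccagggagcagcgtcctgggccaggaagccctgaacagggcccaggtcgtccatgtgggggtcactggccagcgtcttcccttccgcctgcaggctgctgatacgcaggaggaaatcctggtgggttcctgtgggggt
Gas6: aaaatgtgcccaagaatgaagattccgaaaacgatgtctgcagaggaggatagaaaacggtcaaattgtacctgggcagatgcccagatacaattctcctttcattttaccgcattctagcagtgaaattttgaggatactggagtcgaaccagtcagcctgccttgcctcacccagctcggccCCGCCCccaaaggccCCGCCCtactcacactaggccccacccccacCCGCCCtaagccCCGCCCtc
Tyro3: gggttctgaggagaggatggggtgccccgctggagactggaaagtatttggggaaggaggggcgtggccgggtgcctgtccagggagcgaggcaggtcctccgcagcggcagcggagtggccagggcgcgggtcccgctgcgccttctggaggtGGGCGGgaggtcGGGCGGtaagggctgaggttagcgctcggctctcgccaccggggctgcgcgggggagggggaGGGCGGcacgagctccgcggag
The windows of Gas6 and Tyro3 held 4 and 3 GC boxes and that of Stab1 none, while 32.7% of 32851 promoter windows of this length held at least 1. Those of Pros1, Mertk, Cd36, Axl and Lrp1 held 5, 3, 2, 1 and 1, so GC boxes were not particular to the genes that changed. G and C made up 57.2% of the bases for Stab1, 54.8% for Gas6 and 73.2% for Tyro3. The interferon-gamma activated site (TTCNNNGAA on both strands, found in 7.02% of all windows) was matched once each in Pros1 and Lrp1 and in none of these 3 windows. The interferon-stimulated response element core (2.98% of windows), the ETS core (CCGGAAG, 6.91%) and the E-box (CACGTG, 6.02%) were found in none of the 8.

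Other genes of uptake and engulfment were taken from 7 lists of 94 genes, of which 84 had enough counts to be tested, 16 rose and 26 fell. This is 50%, against 45.3% of all genes.

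Among soluble bridging proteins and the enzymes that process them, 11 of 12 genes were tested, 1 rose and 4 fell. The share that passed was 45.5%, against 45.3% of all genes. The gene that rose was Ggcx, the gamma-carboxylase that modifies Gas6 and protein S, with 7.74 ± 0.62 CPM in the 2 controls and 12.1 ± 0.83 CPM in the 4 GapmeR samples (mean ± SD, also below), or 0.64 on the log2 scale (edgeR-adjusted p = 0.000282, SE 0.12). Thbs1 (thrombospondin-1, a ligand of Cd36) fell from 101 ± 1.41 to 53.3 ± 5.43 CPM, at -0.92 on the log2 scale. Mfge8 (lactadherin, which bridges phosphatidylserine to integrins) fell from 565 ± 6.21 to 380.4 ± 30.8 CPM, at -0.57. The other genes that fell were Anxa1 and the sheddase Adam10, and without GapmeR 3 and 4 Lgals3 (galectin-3) passed as lower too (-0.44, edgeR-adjusted p = 0.00493).

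Of 13 other receptors for phosphatidylserine and their integrin partners, 10 were tested, 3 rose and 5 fell, with a median log2 fold change of -0.50. This is 80% against 45.3% of all genes, a difference that was not tested. Ager, a receptor for glycated proteins that also binds phosphatidylserine, rose from 0.806 ± 0.366 to 7.97 ± 0.641 CPM, at 3.27 on the log2 scale (edgeR-adjusted p = 5.6e-09, SE 0.22). Itgb5 rose by 1.27, with 8.93 and 8.76 CPM in GapmeR 3 and 4 against 4.66 and 4.19 CPM in GapmeR 1 and 2, and its log2 fold change was 0.71 without the former. Adgrb2 fell by 1.15 on the log2 scale, and its relatives Adgrb1 (BAI1) and Adgrb3, together with Havcr2 (TIM-3) and Itgb3, also fell. Adgrb3 did not pass without GapmeR 3 and 4 (-0.81, edgeR-adjusted p = 0.0803). Timd4 and Havcr1 had no counts in any sample, and each allows up to 3 counts, or 0.0771 to 0.110 CPM.

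Of 14 genes on the list of other scavenger receptors, 11 were tested, 3 rose and 2 fell (45.5%, against 45.3% of all genes). Megf11, a relative of Scarf1 with epidermal growth factor-like repeats, rose from 0.517 ± 0.111 to 4.55 ± 0.217 CPM (log2 fold change 3.12). Mrc1, the mannose receptor, rose by 1.91 and Cd68 by 0.43, and both are also on the macrophage list. Lgals3bp, a secreted protein counted with this list though not itself a receptor, fell from 453 ± 24.5 to 250.03 ± 27.3 CPM (log2 fold change -0.86). Scarb2, a lysosomal relative of Scarb1, fell as well, but did not pass without GapmeR 3 and 4 (-0.23, edgeR-adjusted p = 0.0529). Olr1, a receptor for oxidized lipoprotein, had too few counts to be tested.

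In the family of lipoprotein receptor-related proteins, 12 of 13 genes other than Lrp1 were tested, 1 rose and 2 fell. The list also counts Lrpap1 and Mesd, which are not themselves receptors, and neither passed. Lrp10 fell from 291 ± 6.07 to 183 ± 24.4 CPM (log2 fold change -0.67). Lrp8, the reelin receptor, rose by 0.33 on the log2 scale. Sorl1 passed as lower without GapmeR 3 and 4 (-0.68, edgeR-adjusted p = 0.0173). The 25% of this list that passed was below the background of 45.3%, which was not tested as a difference.

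Of 17 engulfment adaptors, all were tested, 4 rose and 6 fell (58.8% against 45.3% of all genes, not tested as a difference). Elmo3 rose from 2.30 ± 0.153 to 24.6 ± 2.36 CPM (log2 fold change 3.42, edgeR-adjusted p = 1.2e-11, SE 0.14), while its relatives Elmo1 and Elmo2 fell. Dock4 rose from 32.4 ± 2.33 to 73.3 ± 5.92 CPM (log2 fold change 1.18), and Dock1, the partner of Elmo proteins in activating Rac1, fell. Vav1, a leukocyte guanine nucleotide exchange factor, rose by 1.22, but without GapmeR 3 and 4 its log2 fold change was 0.48 (edgeR-adjusted p = 0.307). Crkl (-0.19, edgeR-adjusted p = 0.0916) and Vav3 (-0.15, edgeR-adjusted p = 0.253), which fell over all samples, did not pass without them either. The cargo adaptor Gulp1 was the fourth gene that rose.

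In lipid handling, 13 of 14 genes were tested, 4 rose and 2 fell (46.2%, against 45.3% of all genes). Fabp5, a fatty acid-binding protein, rose from 19.3 ± 1.66 to 36.6 ± 1.37 CPM (log2 fold change 0.92) and the lipid transporter Abca7 from 59.3 ± 3.81 to 89.7 ± 3.54 CPM (log2 fold change 0.60). The cholesterol exporter Abcg1 fell from 74.6 ± 1.9 to 42.3 ± 6.48 CPM (log2 fold change -0.82). Pdzk1, an adaptor of Scarb1, passed as higher without GapmeR 3 and 4 (2.46, edgeR-adjusted p = 0.0177).

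Of 11 genes of phosphatidylserine exposure and of do-not-eat-me signals, 10 were tested, none rose and 5 fell. The 50% that passed was near the 45.3% of all genes, of which 25.4% were higher and 20% lower. The difference in direction was not tested. Cd47, the do-not-eat-me ligand of SIRP-alpha, fell from 302 ± 16.3 to 119 ± 5.96 CPM, or -1.35 on the log2 scale (edgeR-adjusted p = 3.5e-10, SE 0.07). Cd24a fell by 1.18 on the log2 scale, and Tmem30a, a flippase chaperone, and Calr also fell. Scaled by library size alone or with at least 10 counts in every sample, 1 gene of this list rose.

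**Figure D5:**
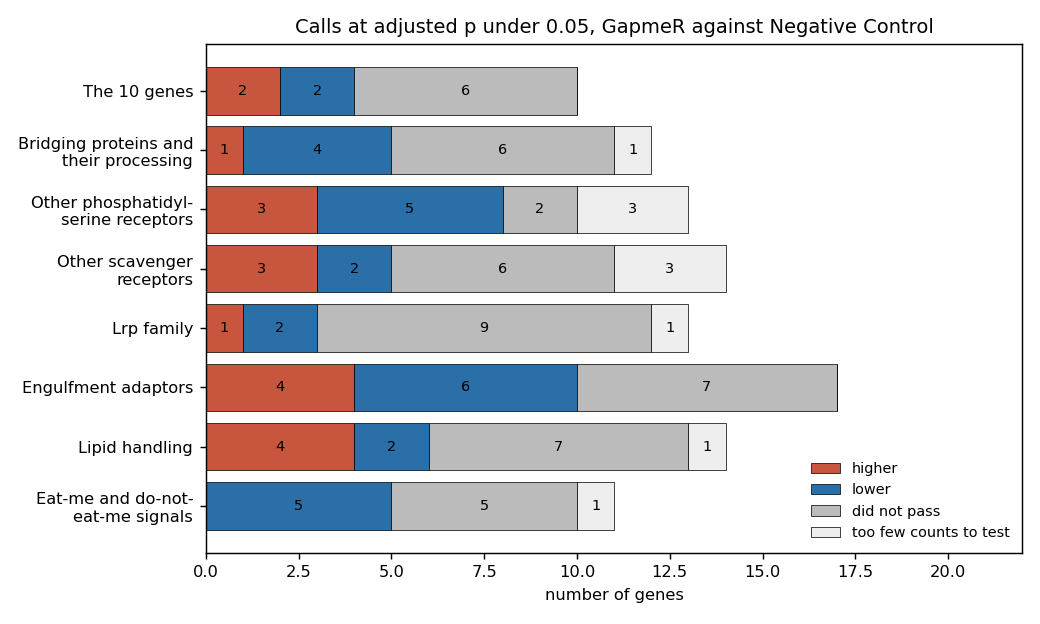
Number of genes (horizontal axis) that rose, fell, did not pass or had too few counts to be tested, GapmeR against Negative Control with edgeR-adjusted p under 0.05, for the 10 genes and 7 further lists. Of the 10 genes, 2 rose and 2 fell, and among eat-me and do-not-eat-me signals 5 fell and none rose. These are 40% and 50% of the genes tested, against 45.3% of all genes.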

How the data were processed

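RNA of bEND.3 cells was sequenced as paired reads after ribosomal depletion. The authors mapped trimmed reads with STAR to mm10; the submitters' processing notes name Trimmomatic 0.36, STAR 2.5.2b and Subread 1.5.2. The deposited table holds raw counts (whole reads) for each Ensembl gene. The strand setting is not given in the sources used here, so antisense genes may share reads. Columns matched 4 GapmeR and 2 Negative Control samples by label, and 1 further column, named like a negative control but matching no sample label, was not used. The study states n = 4 per group, so control values here rest on fewer samples.

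Genes needed 5 or more counts in 2 or more samples, and the 18234 that had them were tested with edgeR 4.0.16 in R 4.3.3 (TMM factors 0.931 to 1.05, robust quasi-likelihood test, Benjamini-Hochberg adjustment). Standard errors are the log2 fold change over the square root of F. Permutation tests used log2(CPM + 0.5) or shares. Alternatives were DESeq2 1.42.0, limma-voom (limma 3.58.1), other scalings, filters and thresholds, the replicate block and samples left out. Counts of replicates differed beyond sampling noise in all pairs (chi-square per degree of freedom 5.41 to 25.2). The 3-count floor, 0.0771 to 0.110 CPM, covers counting error only. Exon lengths and overlaps come from GENCODE (GRCm39) and mm10 coordinates from RefSeq. The test was checked on simulated data.

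All 10 members, the target and up to 3 genes per list, ranked by change, at an adjusted p-value under 0.05 and a mean of at least 1 CPM were named, and of the marker lists the 3 or 5 most abundant genes and all defining macrophage markers. Other genes that passed, and genes with no counts, were named after their values were seen. Members and lists were chosen with earlier results of these data known. Some genes counted in the lists are not reported here by name. Protein sequences were not used here.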

Additional observations from a re-analysis of the deposited data

Results flagged for a closer look

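In 56 sets of 4 GapmeR values, 3 had a sample apart from the others by Dixon's ratio (0.865, 0.922 and 0.934), and chance flags about 1 in 20 groups of 4. None of the 10 genes was among them. Elmo3 was at 28.1 CPM in GapmeR 4 and at 23.1 to 23.8 CPM in the others, and all were above the controls. Cdh5 was at 1472 CPM in GapmeR 2, with the nearest sample at 1802 CPM. Col1a1 was at 38.0 CPM in GapmeR 3, with the nearest sample at 4.58 CPM, and its part in the values of Cd36, Lrp1 and Axl in that sample was not tested.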

How the results depend on the processing

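Over 14 alternatives each, Stab1 (log2 fold change 1.29 to 1.54), Gas6 (0.75 to 1.07) and Tyro3 (-1.45 to -1.14) kept direction and call, and Scarb1 (-0.18 to -0.02) never passed. Over all results and alternatives, 368 values kept direction, call or size, 42 counts or shares moved, 5 values reversed, 3 gained and 2 lost a call. GapmeR 3 and 4 left out together gave Axl -0.77 (passing), Cd36 -0.015, Lrp1 -0.16 and 1 gene of the scavenger receptor list lower. The replicate block can use only samples 1 and 2 of each group, the same 4 samples. It gave Axl -0.77, Cd36 -0.0063, Lrp1 -0.16 and 1 gene of the scavenger receptor list lower. Samples shared only a number: correlations of same-numbered deviations across 12772 genes were -0.0393 and 0.0932. With the block, 7812 genes passed in all, against 8268. It changed no other call of a member.

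Library-size scaling raised log2 fold changes by a median of 0.15, and gave 6106 genes higher and 2135 lower against 4625 and 3643. With it, Mertk passed at 0.21, Pros1 was 0.0086, Scarf1 lost its call at -0.16 and 1 member fell. The lists then had 2 bridging genes higher, 5 genes of the scavenger receptor list higher and 1 lower, and 3 Lrp family genes higher. They also had 8 engulfment adaptors higher and 3 lower, 1 lipid gene lower and 1 eat-me gene higher. With a 1.5-fold limit, on adjusted or unadjusted p-values alike, 1 member, 1 bridging gene, 1 gene of the scavenger receptor list, 1 Lrp family gene, 1 adaptor, 1 lipid gene and 3 eat-me genes were lower, and 0 Lrp family genes higher. With at least 10 counts in every sample, 1 lipid gene was lower and 1 eat-me gene higher. With the longest transcript as length, the share of Tyro3 changed by -2.83 and that of Mertk by 2.94 percentage points, against -2.04 and 2.10.

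With each sample left out in turn, Scarf1 was -0.34 to -0.25, and it lost its call without Negative Control 2. Members lower then numbered 1 to 2, phosphatidylserine receptors 1 to 4 higher and 2 to 5 lower, scavenger receptors 2 to 5 higher and 1 to 2 lower, Lrp family genes 0 to 2 higher, engulfment adaptors 3 to 7 lower, lipid genes 1 to 3 lower and eat-me genes 0 to 1 higher. Changes in count of over 1.5 times came without Negative Control 2, where the lone control is assumed to vary like the GapmeR samples, except that 1 lipid gene was lower without Negative Control 1 as well, and that 5 scavenger receptors, 2 Lrp family genes and 1 eat-me gene were higher without GapmeR 2. Over all genes, 5232 passed without Negative Control 2 and 5791 without Negative Control 1, against 8268. The cause of these changes was not tested. Depth limits Axl and Cd36 most, with 26 to 63 counts in the controls and GapmeR 1 and 2.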
